A study of Mus musculus with 8 samples.

Results

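The cadherins, protocadherins, claudins and connexins are families of cell surface proteins, nearly all membrane-spanning, that are best known for joining neighbouring cells. Their transcripts were compared between the ductus arteriosus, the fetal shunt between the pulmonary artery and the aorta, which shuts once the newborn breathes, and the aorta itself. Members were taken by gene symbol: every cadherin of the Cdh series except Cdh5 and Cdh19, every non-clustered protocadherin of the Pcdh series, every claudin of the Cldn series except Cldn5, and every connexin of the Gja to Gje series, where a probe set carried exactly 1 gene symbol. This gave 68 genes of the 18193 measured: 19 cadherins, 12 protocadherins, 23 claudins and 14 connexins. Where a gene had several probe sets, as 34 of the 68 did, the one with the brightest mean across all 8 arrays stood for it.

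All tissue came from untreated fetal mice on day 19 of gestation. The strain field reads CD88, and the animals are described as CD88 wild type. A sample was ductus tissue or aortic segments combined from up to 10 pups of 1 pregnant female, so the replicate is the litter pool. There were 4 ductus arrays and 4 aorta arrays, each of biotin-labelled cRNA made from total RNA and hybridised to an Affymetrix mouse array. Values are log2 expression, so a difference of 1 is a 2-fold change. The first quartile of the arrays lay between 2.74 and 2.86 and the median between 4.36 and 4.42. No detection call was used here, and a level near the first quartile may not be above background, so a fold against it is not exact. The number of arrays limits the precision. Both vessels carried smooth muscle transcripts: the mean of 9 smooth muscle markers was 9.79 to 10.35 on the ductus arrays and 8.66 to 9.26 on the aorta arrays.

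Classical cadherins bind the same or a related cadherin on the next cell through calcium-stabilised extracellular repeats, and hold on to the actin cytoskeleton inside the cell through catenins. Protocadherins share the extracellular repeats but not the catenin-binding tail. Claudins form the strands of tight junctions and set which ions and solutes pass between cells. Connexins assemble into hexameric half-channels that dock between cells as gap junctions and, in the vessel wall, couple smooth muscle and endothelium electrically.

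Most of the junction genes did not pass the test between the vessels, and the 7 that did came from all 4 families. Called here means an adjusted p under 0.05 in limma's moderated test, with Benjamini-Hochberg adjustment over all 18193 genes. The T-cadherin Cdh13, the type II cadherin Cdh6, the claudin Cldn15 and the endothelial connexin Gja4 were higher in the aorta, each by 2.48-fold to 3.06-fold. The connexin Gja3, the protocadherin Pcdh18 and the type II cadherin Cdh9 were higher in the ductus. That made 3 of 68 genes higher in the ductus, against 1.80% of all genes, and 4 of 68 higher in the aorta, against 2.06% of all genes. Together 10.3% of the junction genes were called, against 3.86% of all genes. The median difference, ductus minus aorta, was -0.01 over the 68 genes and -0.03 over all genes, and 34 genes had a positive and 34 a negative difference.

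**Figure D1:**
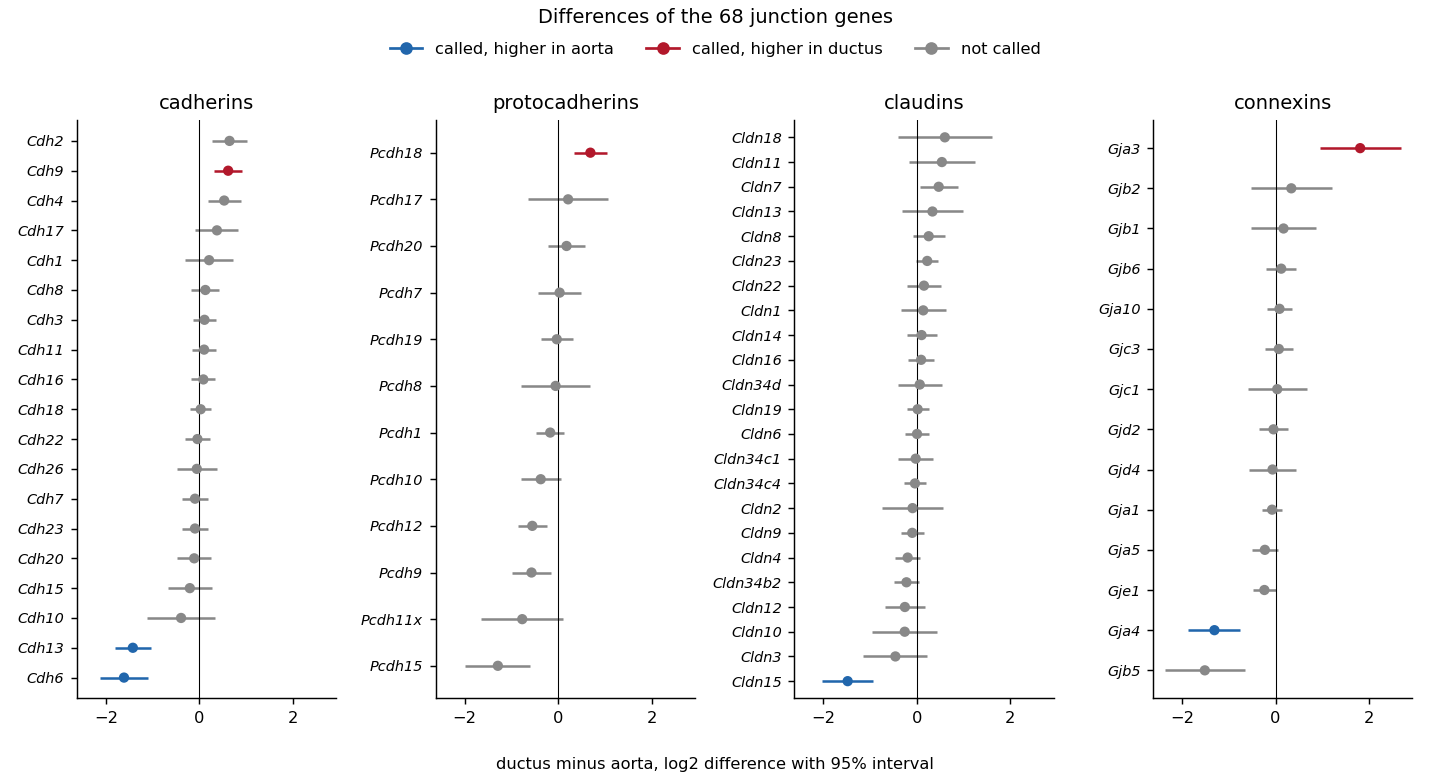
Log2 difference between ductus and aorta (ductus minus aorta, horizontal axis) of each of the 68 junction genes, by family, with the model's 95% interval as a line. Blue points were called higher in the aorta (4 genes), red points higher in the ductus (3 genes) and grey points were not called.

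The 3 genes that were higher in the ductus rested on the full set of arrays. On leaving out 1 array, the number of junction genes that limma called higher in the ductus ranged from 0 to 3. It was 0 without ductus replicate 1, 2 or 3 or aorta replicate 4. It was 1 without ductus replicate 4 (Gja3), aorta replicate 2 (Cdh4) or aorta replicate 3 (Cdh2), and 3 without aorta replicate 1 (Cdh9, Pcdh18 and Cldn7). With all 8 arrays, 14 of the 68 genes had an unadjusted p under 0.05 in either direction, against 2935 of all 18193 genes. The number higher in the aorta ranged from 3 to 6, and Cdh13, Cdh6 and Cldn15 were called in all 8 of these fits. Leaving out 1 array also lowered the calls over all genes, in either direction, from 702 to between 443 and 574. The exception was the fit without aorta replicate 3, with 705. A lost call in these fits is therefore not particular to the junction genes.

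Many of these genes gave a low signal. Of the 68 genes, 40 had both group means under every array's median and 19 had both means under the highest first quartile of the arrays. The values of the 2 vessels did not overlap in 12 of the 68 genes (17.6%) and in 11.3% of all genes. Of these 12, 8 were lower and 4 higher in the ductus. They were the 7 called genes and Cdh2, Pcdh9, Pcdh12, Pcdh15 and Gjb5.

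**Figure D2:**
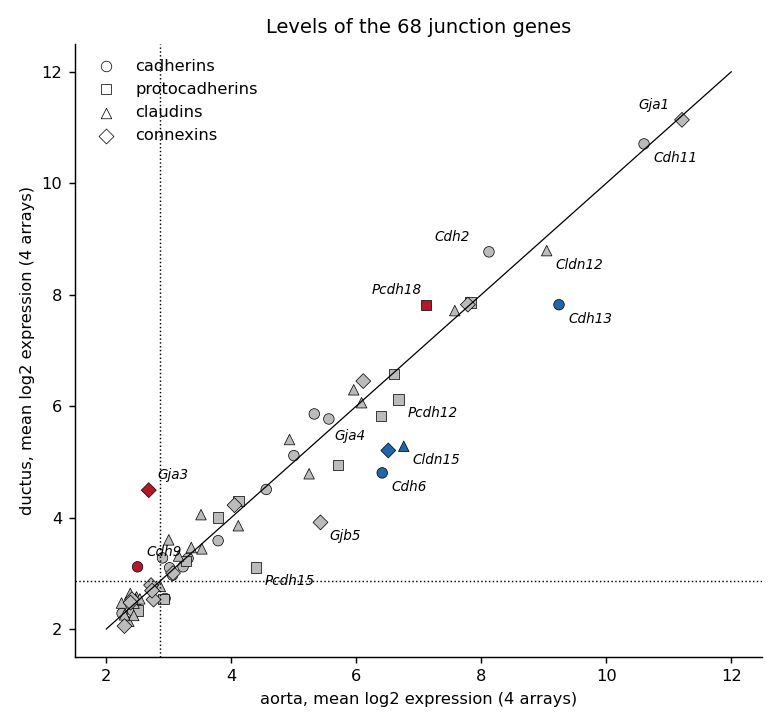
Mean log2 expression of the 68 junction genes in the aorta (horizontal axis) and the ductus (vertical axis), 4 arrays each; the diagonal marks equal levels and the dotted lines the highest first quartile of the arrays (2.86). Red symbols are genes called higher in the ductus, blue symbols those called higher in the aorta, and the cluster at lower left holds genes near or under the first quartile in both vessels.

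Cdh13 was the junction gene with the smallest adjusted p. It encodes T-cadherin, a truncated, lipid-anchored cadherin of vascular cells that also binds adiponectin. Its values were 7.85, 7.57, 8.08 and 7.78 on ductus replicates 1 to 4, and 8.96, 9.50, 8.99 and 9.53 on aorta replicates 1 to 4. Every aorta array was above every ductus array, and aorta replicates 2 and 4 were the brightest. The means were 7.82 ± 0.21 in the ductus against 9.24 ± 0.32 in the aorta (SD, n = 4 each), a difference of -1.42 ± 0.17 (SE; 2.68-fold higher in the aorta, limma adjusted p = 0.00183). All 4 Cdh13 probe sets were lower in the ductus. In a fit over single probe sets 3 of them were called, at differences of -1.42, -1.45 and -1.73, while the fourth differed by -0.26 (limma adjusted p = 0.365).

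Cdh6, or K-cadherin, is a type II classical cadherin known from the kidney, neural crest and early epithelia. It was nearly constant in the ductus, at 4.75, 4.79, 4.89 and 4.77, and higher and more spread in the aorta, at 5.66, 6.71, 6.82 and 6.47. Aorta replicate 1 was the lowest of the aorta arrays, and the vessels did not overlap. The means of 4.80 ± 0.062 and 6.41 ± 0.52 (SD, n = 4 each) gave a difference of -1.61 ± 0.23 (SE; 3.06-fold, limma adjusted p = 0.00395). The other Cdh6 probe set went the same way, by -0.47, and was not called (limma adjusted p = 0.166).

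Cdh9, another type II cadherin, best known from synapses and kidney, went in the opposite direction. Its values were 3.34, 3.03, 3.15 and 2.95 in the ductus against 2.75, 2.44, 2.55 and 2.25 in the aorta. The vessels did not overlap, but the aorta mean, 2.50 ± 0.21 (SD, n = 4), lay under the first quartile of every array. The difference was 0.62 ± 0.14 (SE; limma adjusted p = 0.0385). It was called in 1 of 8 fits that left out an array, the fit without aorta replicate 1, and adjusted p reached 0.108 in the others.

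Cdh6 and Cdh9 lie next to each other among the protein-coding genes of chromosome 15 (RefSeq gene table, GRCm38.p6), followed by Cdh10, which differed by -0.39 ± 0.33 (SE; limma adjusted p = 0.631). Sequence around the RefSeq start, 250 bases before to 50 after, was listed for 49 of the 68 genes. The windows of the 2 neighbours share a run of 15 letters, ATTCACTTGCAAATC, at different distances from the start. The run was found after reading these windows, and other pairs of these genes share runs of like length: 10 pairs shared at least 1 run of 14 letters. Of these, 4 pairs, Cdh6 and Cdh9 among them, shared 2 runs of 14, the number that a run of 15 holds. The shared run begins at position -18 from the Cdh6 start and -209 from the Cdh9 start. Searched on both strands, it occurred in these 2 windows and in no other of the 32851 windows listed. As the run was picked from these 2 windows, both matches were fixed beforehand. How often other runs of 15 letters recur was not counted, so its absence elsewhere has no background to be read against. The 250 bases before each start are shown because these 2 genes, which share the run, were called in opposite directions; capitals mark the run. The Cdh6 sequence is the minus strand of chr15:13173676-13173925 and the Cdh9 sequence the plus strand of chr15:16728665-16728914 (GRCm38.p6).
Cdh6: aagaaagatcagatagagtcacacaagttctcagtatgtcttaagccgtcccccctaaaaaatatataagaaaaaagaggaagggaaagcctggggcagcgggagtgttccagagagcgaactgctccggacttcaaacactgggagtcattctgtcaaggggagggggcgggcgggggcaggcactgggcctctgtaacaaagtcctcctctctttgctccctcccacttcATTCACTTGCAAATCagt
Cdh9: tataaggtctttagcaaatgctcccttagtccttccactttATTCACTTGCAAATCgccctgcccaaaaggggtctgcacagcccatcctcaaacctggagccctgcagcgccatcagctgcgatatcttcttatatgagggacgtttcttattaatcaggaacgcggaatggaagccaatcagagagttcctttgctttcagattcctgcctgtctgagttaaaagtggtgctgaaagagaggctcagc

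Of the type I classical cadherins, 0 of 5 were called by limma, with 2 at an unadjusted p under 0.05. Cdh2, N-cadherin, which links smooth muscle cells to each other and to endothelium, was at 8.90, 8.57, 8.77 and 8.84 in the ductus against 7.995, 8.15, 8.55 and 7.79 in the aorta. The vessels did not overlap, though aorta replicate 3 lay just under the lowest ductus array. The difference of 0.65 ± 0.16 (SE) did not pass (limma adjusted p = 0.0665) and passed without aorta replicate 3 (0.79, adjusted p = 0.0160), with a trended robust prior (adjusted p = 0.0387) and when only genes averaging over log2 6 were tested (adjusted p = 0.0445). Its other probe set differed by 0.10. All 9 smooth muscle markers were higher in the ductus by mean, 5 of them called, and their part in the Cdh2 values was not tested. Cdh4, R-cadherin, was at 5.86 ± 0.11 in the ductus against 5.33 ± 0.31 in the aorta (SD, n = 4 each). Its difference of 0.53 ± 0.16 (SE) did not pass (limma adjusted p = 0.112) except without aorta replicate 2 (0.68, adjusted p = 0.0262).

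The epithelial cadherins Cdh1 (E-cadherin) and Cdh3 (P-cadherin) had intervals on both sides of 0. Cdh1 differed by 0.21 with a 95% interval of -0.31 to 0.73, and Cdh3 by 0.11 with an interval of -0.13 to 0.35. Cdh11, the mesenchymal OB-cadherin, was at 10.71 ± 0.085 in the ductus against 10.61 ± 0.18 in the aorta (SD, n = 4 each; difference 0.10, interval -0.16 to 0.36, limma adjusted p = 0.742). A dimmer Cdh11 probe set differed by 0.54 and was not called (adjusted p = 0.0918). Cdh15, the muscle M-cadherin, was under the array median in both vessels (3.58 and 3.79). The other 10 cadherins were not called, with differences from -0.39 to 0.38, and 9 of them were under the array median in both vessels.

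Among the protocadherins, Pcdh18 was called, and 4 of 12 had an unadjusted p under 0.05. Pcdh18 belongs to the delta protocadherins, which carry short conserved motifs in their tails and are known from the developing brain and mesenchyme. Its values were 7.73, 7.72, 7.61 and 8.17 in the ductus against 7.38, 7.04, 7.18 and 6.87 in the aorta. All ductus arrays were above all aorta arrays, with replicate 4 the highest ductus and the lowest aorta array. The difference was 0.69 ± 0.16 (SE; 1.61-fold, limma adjusted p = 0.0420). In a fit over single probe sets it did not pass (limma adjusted p = 0.0507), and the 2 other, dimmer Pcdh18 probe sets went the other way (-0.22 and -0.040). The call held in 1 of 8 fits that left out an array, the fit without aorta replicate 1, with adjusted p up to 0.117 in the others, and not with the arrays shifted to the same median (0.73, adjusted p = 0.0713), quantile normalized again (0.72, adjusted p = 0.0547) or with the mean over probe sets (0.14, adjusted p = 0.524).

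Pcdh15 and Pcdh12 were lower in every ductus array without passing the test. Pcdh15, a tip-link protein of inner ear hair cells, was at 3.65, 2.72, 2.79 and 3.27 in the ductus against 4.85, 3.96, 3.79 and 4.97 in the aorta. Its difference was -1.29 ± 0.31 (SE; limma adjusted p = 0.0539), and 2 of its 3 probe sets were lower in the ductus. It passed without aorta replicate 3 (adjusted p = 0.0338), with a trended robust prior (0.0288), with the arrays shifted to the same median (0.0395) and with each gene read from its most variable probe set, by interquartile range (0.0458). Pcdh12, an endothelial protocadherin, was at 6.22, 6.08, 6.09 and 6.10 in the ductus against 6.37, 6.89, 6.55 and 6.89 in the aorta. Its difference was -0.55 ± 0.14 (SE; limma adjusted p = 0.0607), and it passed without aorta replicate 1 (-0.65, adjusted p = 0.0288), with array weights (0.0449), without the lowest 40% of genes (0.0457) and when only genes averaging over log2 6 were tested (0.0373).

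The delta protocadherins Pcdh7 and Pcdh19 had intervals on both sides of 0. Pcdh7 was at 7.86 ± 0.33 and 7.83 ± 0.34 (SD, n = 4 each; interval of the difference -0.43 to 0.50), and Pcdh19 differed by -0.028 (interval -0.37 to 0.31). Pcdh17 differed by 0.21 (interval -0.63 to 1.06), with aorta values from 3.00 to 4.92. Pcdh10 differed by -0.37 (interval -0.80 to 0.055) and was under the array median in both vessels. The other 5 protocadherins were not called, with differences from -0.77 to 0.18.

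Of 23 claudins, Cldn15 was called. Cldn15 forms paracellular sodium pores and is known from the intestine. Its values were 5.61, 5.09, 5.38 and 5.04 in the ductus against 7.02, 6.61, 6.11 and 7.29 in the aorta. The vessels did not overlap, and aorta replicate 3 was the lowest of the aorta arrays. The difference was -1.48 ± 0.25 (SE; 2.79-fold higher in the aorta, limma adjusted p = 0.00964), on the 1 probe set of the gene. It was called in each of the 8 fits that left out an array, with adjusted p from 0.00319 to 0.0381.

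The other claudins with the brightest probe sets were not called. Cldn12, a claudin without the usual binding motif for tight junction scaffolds, was at 8.79 ± 0.36 in the ductus against 9.05 ± 0.24 in the aorta (SD, n = 4 each; interval of the difference -0.69 to 0.18), and both of its probe sets were lower in the ductus. Cldn1, a barrier claudin of skin and other epithelia, was at 7.71 ± 0.42 and 7.58 ± 0.26 (interval -0.34 to 0.62), and 3 of its 4 probe sets were lower in the ductus. Cldn13 differed by 0.33 (interval -0.32 to 0.99).

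Further claudins known from epithelia were not called. Cldn7 was at 5.40 ± 0.15 in the ductus against 4.93 ± 0.37 in the aorta (SD, n = 4 each), a difference of 0.47 ± 0.18 (SE; limma adjusted p = 0.229) that passed without aorta replicate 1 (0.65, adjusted p = 0.0296). Cldn3 differed by -0.46 (interval -1.15 to 0.23), and all 4 of its probe sets had differences under 0. Cldn4 and Cldn6 were under the highest first quartile in both vessels, with intervals of -0.46 to 0.069 and -0.26 to 0.27, as was Cldn23, at 0.22 (interval -0.018 to 0.46). Cldn10 differed by -0.26 (interval -0.96 to 0.44), and Cldn11, the claudin of myelin and Sertoli cells, by 0.54 (interval -0.17 to 1.24).

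Cldn18, which has a lung and a stomach form, was at 3.77, 2.81, 4.95 and 2.87 in the ductus against 2.94, 2.82, 2.58 and 3.65 in the aorta. Its difference of 0.60 had an interval of -0.40 to 1.60 (limma adjusted p = 0.582), and 1 of its 2 probe sets went in this direction. The mean of 11 airway and lung epithelial markers was 5.02 to 5.91 in the ductus against 3.73 to 4.75 in the aorta, with 3 of the 11 called higher in the ductus and 1 under the highest first quartile in both vessels. In each vessel Cldn18 was highest on the array where that mean was highest (ductus replicate 3 and aorta replicate 4). The mean of 12 skeletal muscle markers was highest on the same arrays (5.15 and 3.52). The part of either cell type in the Cldn18 values was not tested. The other 11 claudins were not called, with differences from -0.22 to 0.25, and 10 of them were under the array median in both vessels.

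Among the connexins, 1 of 14 was higher in each vessel. Gja4, a connexin of arterial endothelium, was at 5.56, 4.61, 5.58 and 5.07 in the ductus against 6.51, 6.67, 6.02 and 6.85 in the aorta. Every aorta array was above every ductus array, and the means were 5.20 ± 0.46 and 6.51 ± 0.36 (SD, n = 4 each). The difference was -1.31 ± 0.25 (SE; 2.48-fold higher in the aorta, limma adjusted p = 0.0187). Without ductus replicate 4, aorta replicate 2 or aorta replicate 4 it did not pass (adjusted p = 0.0607, 0.0636 and 0.0543). The mean of 13 endothelial markers was 7.03 to 7.34 in the ductus against 7.41 to 7.82 in the aorta; 12 of the 13 were lower in the ductus, 3 of them called (Pecam1, Tek and Cldn5). Their part in the Gja4 and Pcdh12 values was not tested, and in pooled tissue fewer endothelial cells and less RNA per cell cannot be told apart.

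Gja5, the other main connexin of arterial endothelium, was under the highest first quartile in both vessels on its 1 probe set (2.53 ± 0.12 and 2.75 ± 0.21; SD, n = 4 each). The interval of its difference was -0.51 to 0.057.

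Gja3, a connexin of the eye lens, was at 5.12, 4.78, 4.93 and 3.13 in the ductus against 2.63, 2.77, 2.39 and 2.93 in the aorta. Ductus replicate 4 stood far below the other ductus arrays and close above the highest aorta array. The difference was 1.81 ± 0.39 (SE; 3.51-fold, limma adjusted p = 0.0322). The aorta mean, 2.68, was under the first quartile of every array, so the fold is not exact. Without ductus replicate 4 the difference was 2.26 (adjusted p = 0.000398), and on leaving out any single one of the other 7 arrays it did not pass (adjusted p of 0.0645 to 0.0899). The other Gja3 probe set differed by -0.074 (limma adjusted p = 0.899).

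Gja3 is followed on chromosome 14 by Gjb2 and Gjb6, connexins of the inner ear and skin, which were not called. Gjb2 differed by 0.34 (interval -0.53 to 1.20) and Gjb6 by 0.12 (interval -0.20 to 0.45), the latter under the highest first quartile in both vessels. Over all 10 pairs of members that lie next to each other among protein-coding genes, 6 had differences of the same sign.

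Gja1, the main gap junction protein of vascular smooth muscle, was at 11.21, 11.18, 11.002 and 11.15 in the ductus against 11.29, 11.18, 11.11 and 11.27 in the aorta. The vessels overlapped, and the difference was -0.074 with an interval of -0.30 to 0.15. Of its 6 probe sets 4 were lower in the ductus and none was called. Gjc1, a connexin of smooth muscle and the conduction system, was at 7.73, 8.13, 7.54 and 7.89 in the ductus against 8.04, 8.10, 8.16 and 6.85 in the aorta, where replicate 4 stood apart. Its difference was 0.036 (interval -0.60 to 0.67), and -0.28 without that array (limma adjusted p = 0.438). The other Gjc1 probe set differed by 0.42 (limma adjusted p = 0.251), and the one used here is of a type that can also bind related transcripts.

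Gjb5, a connexin of stratified epithelium and trophoblast, was lower in every ductus array without passing. It was at 3.77, 4.07, 3.74 and 4.07 in the ductus against 6.62, 4.86, 4.58 and 5.64 in the aorta, with aorta replicate 1 the highest and replicate 3 the lowest. The difference was -1.51 ± 0.38 (SE; limma adjusted p = 0.0640), and it passed without aorta replicate 1 (-1.12, adjusted p = 0.0465) or aorta replicate 3 (-1.80, adjusted p = 0.0277), and with a trended robust prior (adjusted p = 0.0388). The mean of 11 mesothelial markers was 6.47 to 7.08 in the ductus against 7.76 to 9.18 in the aorta, also with aorta replicate 1 the highest (9.18) and replicate 3 the lowest (7.76). All 11 mesothelial markers were lower in the ductus. Of them 9 were called, and none lay under the highest first quartile in both vessels. The means of the endothelial, Schwann cell and cartilage markers had their aorta extremes on the same arrays. Of 7 esophageal and stratified epithelial markers 0 were called and 4 were lower in the ductus. Among these 7, only Krt14 did not overlap between the vessels (-1.50, limma adjusted p = 0.0603). The part of any of these cells in the Gjb5 values was not tested. Gjc3 and Gje1 were under the highest first quartile in both vessels (differences 0.071 and -0.24), and the other 4 connexins had differences from -0.064 to 0.17.

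**Figure D3:**
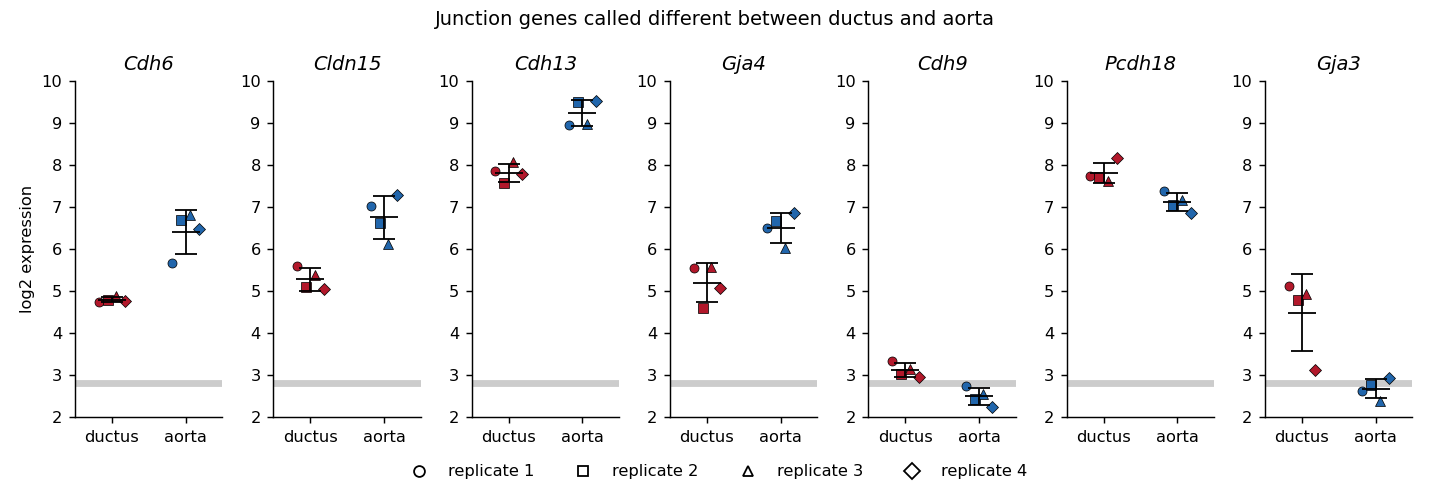
Log2 expression (vertical axis) of the 7 called junction genes on each array; symbols mark the replicate number, the horizontal bar the mean and the whiskers 1 SD over 4 arrays. The grey band is the range of the arrays' first quartiles (2.74 to 2.86); the aorta values of Cdh9 and Gja3 lie in it or nearby, and ductus replicate 4 of Gja3 lies near the aorta arrays.

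The windows before the starts of the aorta-high genes Cldn15 and Gja4 are shown for their core promoter letters, since both genes were lower in all ductus arrays. Short motifs were searched on both strands in the windows of 300 bases. The GC box, GGGCGG, occurred in 35.7% of all 32851 windows and in 27 of the 64 windows of junction genes. By gene, it occurred in 25 of the 49 junction genes with a window and in 5 of the 6 called genes with one (all but Cdh9). The AP-2 palindrome, GCCNNNGGC, which reads alike on both strands and can overlap a GC box, occurred in 16.6% of all windows and in 13 of the 64. By gene, it occurred in 11 of the 49, among them the called genes Cdh6 and Cldn15. The E-box that Snail and Zeb factors bind, CAGGTG, occurred in 20.2% of all windows, in 15 of the 64 and in 13 of the 49 genes. The TATA box, TATAAA, occurred in 13.6% of all windows, in 8 of the 64 and in 8 of the 49 genes. Among the called genes, Gja3 alone held an E-box or a TATA box of these letters. Some genes have several windows, and so more chances of a match. The share by gene was not counted over all genes, so the counts by gene have no background to be read against. A match describes the letters only. Capitals mark the GC box in both windows printed and the AP-2 palindrome in that of Cldn15. Cldn15 is the plus strand of chr5:136967619-136967868 and Gja4 the minus strand of chr4:127314040-127314289 (GRCm38.p6).
Cldn15: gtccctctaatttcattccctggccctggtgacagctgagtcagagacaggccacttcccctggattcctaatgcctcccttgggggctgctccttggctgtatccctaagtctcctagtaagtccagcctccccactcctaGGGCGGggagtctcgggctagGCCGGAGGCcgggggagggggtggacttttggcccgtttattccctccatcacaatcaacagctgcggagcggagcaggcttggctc
Gja4: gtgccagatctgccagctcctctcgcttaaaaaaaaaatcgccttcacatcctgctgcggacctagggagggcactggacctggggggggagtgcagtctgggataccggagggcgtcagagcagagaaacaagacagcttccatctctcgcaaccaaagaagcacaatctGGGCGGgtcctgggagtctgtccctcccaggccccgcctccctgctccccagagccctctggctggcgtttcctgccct

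All 8 called partners of these proteins, in the lists of adherens junction, desmosome and tight junction genes, were higher in the aorta. Of 28 measured partners in adherens junctions and desmosomes, 0 were higher in the ductus against 4 in the aorta (14.3%) in limma's test. Over all genes the shares were 1.80% and 2.06%. An unadjusted p under 0.05 was seen in 7 of the 28, against 2935 of all 18193 genes. The median difference of the 28 was -0.16. Dsp, desmoplakin, which ties desmosomes to intermediate filaments, was 2.31-fold higher in the aorta (-1.21 ± 0.20, SE; limma adjusted p = 0.00858). The desmosomal cadherin Dsg2 was at 8.05, 8.02, 7.99 and 7.69 in the ductus against 9.87, 9.06, 8.69 and 9.54 in the aorta, without overlap (2.56-fold, limma adjusted p = 0.0116). The plakin Ppl was 3.00-fold higher (limma adjusted p = 0.0131) and Ctnna3, an alpha-catenin known from heart, 2.06-fold (limma adjusted p = 0.0231). Ctnna3 did not pass without ductus replicate 1, 3 or 4 or aorta replicate 2 (adjusted p up to 0.0644) or with the mean over probe sets (-0.64, adjusted p = 0.0731). The shared catenins of the classical cadherins were not called: Ctnnb1 differed by 0.062, Jup by -0.054, Ctnna1 by -0.0029 and Ctnnd1 by 0.21. The vessels did not overlap in 6 of the 28 (21.4%, against 11.3% of all genes), 5 lower and 1 higher in the ductus. The 1 higher was Vcl, which was not called (0.20, limma adjusted p = 0.317).

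Of 29 measured tight junction partners, 0 were higher in the ductus against 4 in the aorta (13.8%) in limma's test, against 1.80% and 2.06% of all genes. An unadjusted p under 0.05 was seen in 10 of the 29, against 2935 of all 18193 genes. The median difference of the 29 was -0.20. The polarity protein Pard6b was at 5.27, 5.55, 5.46 and 4.90 in the ductus against 8.58, 7.60, 6.55 and 7.77 in the aorta (5.03-fold, limma adjusted p = 0.00709). The immunoglobulin-type adhesion proteins Cxadr and F11r were 2.89-fold (limma adjusted p = 0.0151) and 2.24-fold (adjusted p = 0.0166) higher in the aorta, and the tricellular junction protein Ildr2 1.91-fold (adjusted p = 0.0255). Cxadr did not pass without ductus replicate 4 (adjusted p = 0.0540) or with the mean over probe sets (-0.59, adjusted p = 0.102), nor F11r without ductus replicate 2 (0.0511) or aorta replicate 2 (0.0592). Ildr2 did not pass in 7 of 17 alternatives. Among these were leaving out any single ductus array or aorta replicate 4 (limma adjusted p of 0.0552 to 0.0720) and the mean over probe sets (-1.24, adjusted p = 0.0555). The scaffold Tjp1 differed by -0.058 and the strand protein Ocln by -0.34, neither called. In 7 of the 29 the vessels did not overlap (24.1%, against 11.3% of all genes), 6 lower and 1 higher in the ductus. The 1 higher was Clmp, which was not called (0.55, limma adjusted p = 0.0609).

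Over the 4 partner lists, 21 genes had their highest aorta value on replicate 1 and their lowest on replicate 3. Of these, 6 were called (Dsg2, Ppl, Pard6b, Cxadr, F11r and Ildr2) and the rest, such as Marveld2 and Pkp2, were not. The same extremes were seen in the means of the mesothelial, endothelial, Schwann cell and cartilage markers. Of the 68 junction genes, 7 had these extremes and 0 of those were called: Cdh8, Cdh10, Cldn3, Cldn19, Gja1, Gjb5 and Gjc3. Another 13 of the 68 were highest on aorta replicate 4 and lowest on replicate 3. Of these 13, Cldn15 and Gja4 were called higher in the aorta and Gja3 higher in the ductus. The rest, such as Cdh1 and Cldn1, were not called. The means of 9 thymus and 10 autonomic neuron markers had these extremes too. Of those markers 0 and 1 were called higher in the aorta by limma (0 and 4 in either direction at an unadjusted p under 0.05). The lists with shared extremes did not all run one way: the median difference was -1.92 for mesothelial, -0.66 for endothelial, -0.18 for autonomic neuron, -0.0054 for cartilage, 0.17 for Schwann cell and 1.29 for thymus markers. The part of these cells in those values was not tested. How many of all genes had either pair of extremes was not counted, so these counts have no background to be read against.

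**Figure D4:**
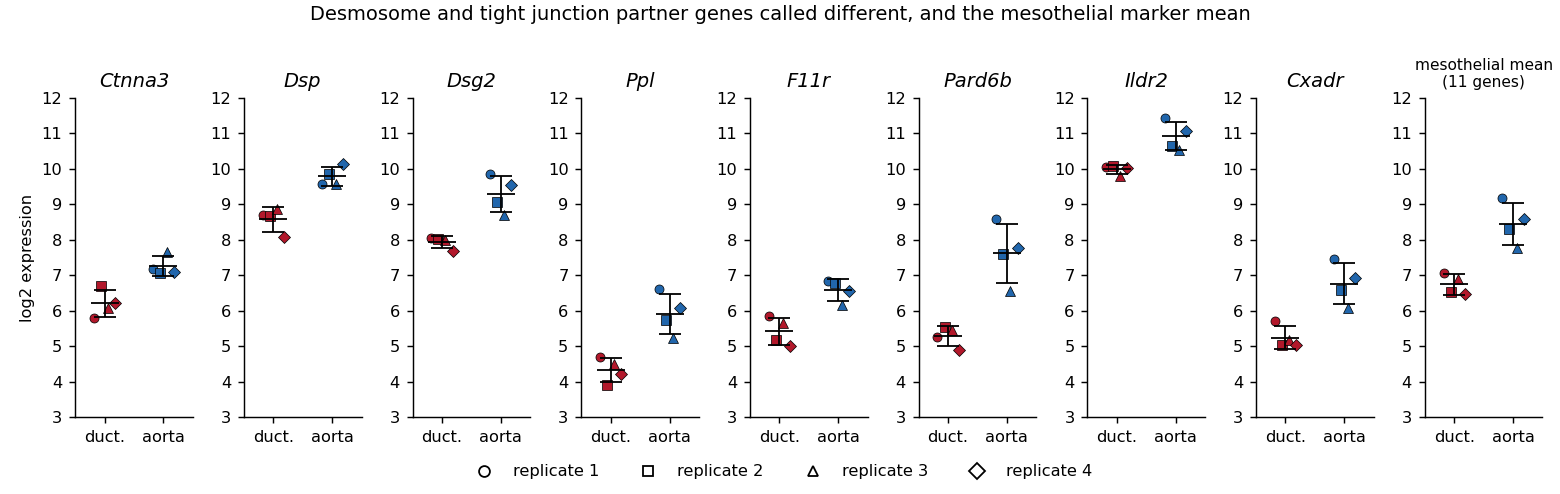
Log2 expression (vertical axis) on each array of the 8 partner genes called higher in the aorta and, at right, the mean of 11 mesothelial markers; symbols mark the replicate number, the bar the mean and the whiskers 1 SD over 4 arrays. Aorta replicate 1 (circles) is highest and replicate 3 (triangles) lowest in 6 of the 8 genes and in the marker mean. The endothelial, Schwann cell and cartilage marker means, not drawn, had the same extremes.

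Regulators and surface genes of the epithelial state were mostly not called. Of 23, limma called 0 higher in the ductus against 1 in the aorta (1.80% and 2.06% of all genes). An unadjusted p under 0.05 was seen in 5 of the 23, against 2935 of all 18193 genes. The called gene was Twist2, a mesenchymal transcription factor (1.72-fold, limma adjusted p = 0.0193). Twist2 did not pass without ductus replicate 1 or 4 or aorta replicate 1 or 2 (adjusted p of 0.0539 to 0.0625). The cadherin repressors Snai2 and Zeb1 differed by -0.076 and 0.025 and the epithelial surface gene Epcam by -0.060, none called. Zeb2 and Esrp1 were higher in every ductus array without passing (0.40 and 0.69, limma adjusted p = 0.192 and 0.135). With Twist2 they made 3 of the 23 without overlap (13.0%, against 11.3% of all genes). Limma called 0 of the 3 pannexins, with 0 at an unadjusted p under 0.05.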

How the data were processed

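The deposited table holds log2 expression values per Affymetrix probe set, made by the authors with Partek 6.6 and RMA per the submitters' processing notes; their order and settings were not given in the sources used here. Of 45101 probe sets, 34945 carried exactly 1 gene symbol (9160 were not listed in the annotation, 932 had several symbols and 64 were controls), and 34741 of those were matched to the RefSeq gene table by gene ID. No low-value filter was applied.

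Ductus minus aorta was fitted over 18193 genes by lmFit and eBayes (limma 3.58.1, run under R 4.3.3), two-sided and with no covariate. The labels call the replicates biological, so the p-values reflect variation among litter pools. Tested on simulated arrays of 18193 genes, the fit found 74% of genes given a log2 change of 1, found 99% at a log2 change of 2, and made 10 false calls in 183.

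The members, gene lists and naming rule were chosen with earlier results of these data known. The rule names called members, the 3 brightest and the 2 next by adjusted p per family, fixed anchors (31 of 32 were measured) and up to 4 called partners per list. Alternatives covered scaling, low-value filters, probe set choice, a replicate block, array weights, the prior on the variance, the call threshold and leaving out each array. Promoter windows are from RefSeq, GRCm38.p6.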

Additional observations from a re-analysis of the deposited data

Results flagged for a closer look

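In 94 groups of 4 arrays checked (47 named genes in each vessel), 4 had an array far from the other 3, where chance gives about 1 in 20 groups. Gja3 was at 3.13 on ductus replicate 4 against 4.78 to 5.12 on the others. Gjc1 was at 6.85 on aorta replicate 4 against 8.04 to 8.16. Among the partner genes, Dsg2 was at 7.69 on ductus replicate 4 against 7.99 to 8.05, and Ctnna3 at 7.67 on aorta replicate 3 against 7.07 to 7.17.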

How the results depend on the processing

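The count of junction genes higher in the ductus, 3, was 0 to 3 on leaving out 1 array, 1 without the lowest 40% of genes, 0 with the replicate block, 0 at limma's adjusted p under 0.01 (14 junction genes had an unadjusted p under 0.05 in either direction) and 1 with a 2-fold minimum. Without the lowest 40% of genes only 26 junction genes were tested. Cdh9 and Gja3 were not among them, so that fit did not test their calls. The count higher in the aorta, 4, stayed within 3 to 6 under every alternative listed. Same-numbered samples did not deviate together (correlations of -0.07, -0.15, -0.19 and -0.23 between ductus and aorta). Such correlations cannot show whether same-numbered pools came from the same litter, and the main fit paired no samples. With the replicate block 403 genes were called in place of 702. Under the block Cdh9 (adjusted p = 0.0511), Gja3 (0.0911), Gja4 (0.0852) and Pcdh18 (0.161) did not pass, and Pcdh15 did (0.0126); among the partners, Dsp (0.0649), F11r (0.0502) and Ctnna3 (0.081) did not. Cdh13, Cdh6 and Cldn15 were called in every fit that tested them.

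Directions turned only for genes not called in the main test. Leaving out 1 array gave ranges of -0.0661 to 0.0644 for Cldn6, -0.28 to 0.16 for Gjc1, -0.049 to 0.59 for Pcdh17, -0.15 to 0.0747 for Pcdh19 and -0.13 to 0.12 for Pcdh7. Array weights gave -0.0061 for Cldn6, -0.0568 for Gjc1 and -0.0351 for Pcdh7. The mean over probe sets gave -0.0311 for Cldn1 and -0.0729 for Pcdh7, the probe set of largest interquartile range gave 0.13 for Pcdh10, -0.19 for Pcdh17 and -0.32 for Pcdh7, and shifted medians gave 0.0117 for Pcdh19. Causes were not tested. Of 758 refits of single genes, 665 kept direction and side of the threshold, 54 lost a call, 17 gained one and 22 changed sign. Signal near the first quartile limits what can be said of the 19 genes under it in both vessels.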
